A study of Mus musculus with 12 samples.

Results

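The olfactory bulb (OB) of Tg2576 mice was compared with that of WT littermates at 6 months of age, with 3 arrays of each genotype out of 12 arrays in the series. The Tg2576 group was labelled OB_TG2576_6M and the WT group OB_WT_6M, and these labels chose the 6 arrays. All 22206 gene probesets of the Affymetrix Mouse Clariom S array, out of 29129 probesets in all, were compared. Tg2576 mice carry human APP with the Swedish mutation under a prion protein promoter, so that the transgene is not restricted to the OB or to 1 cell type. All mice were female, on a mixed C57BL/6 and SJL background. The other 6 arrays hold Tg2576 and WT mice of 2 months. Values are log2 intensities normalized by RMA, so that a log2 fold change is a difference of mean values, Tg2576 minus WT.

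The OB is the first relay of odour information. Axons of olfactory sensory neurons contact mitral and tufted cells, which are the glutamatergic output neurons, in glomeruli. Granule and periglomerular interneurons inhibit them, and migrating neuroblasts add new interneurons through life. Immediate early genes are transcribed within minutes of neuronal activity, and their mRNA in the OB follows odour-driven firing. The processing of amyloid precursor protein by secretases yields the amyloid peptides that accumulate in Tg2576 mice with age.

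Promoters are shown here because their genes belong to gene lists described further on, the immediate early genes Fos and Npas4 (called lower in Tg2576 mice) and the glucocorticoid-induced kinase gene Sgk1 (called higher). Each is the 250 bases before a RefSeq transcript start (GRCm38.p6), written 5′ to 3′ on the gene's strand. Capitals mark TGACG on either strand (CGTCA on the other), the core of the cAMP response element bound by CREB, in Fos and Npas4. In Sgk1, which has several transcript starts, they mark the palindromic glucocorticoid response element, AGAACA and TGTTCT separated by NNN.
Fos, chr12:85473640-85473889, plus strand: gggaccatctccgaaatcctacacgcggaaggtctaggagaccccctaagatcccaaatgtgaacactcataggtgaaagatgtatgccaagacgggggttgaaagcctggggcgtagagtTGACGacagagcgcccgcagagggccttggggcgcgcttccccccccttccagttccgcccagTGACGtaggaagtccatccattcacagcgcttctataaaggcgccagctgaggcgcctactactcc
Npas4, chr19:4989972-4990221, minus strand: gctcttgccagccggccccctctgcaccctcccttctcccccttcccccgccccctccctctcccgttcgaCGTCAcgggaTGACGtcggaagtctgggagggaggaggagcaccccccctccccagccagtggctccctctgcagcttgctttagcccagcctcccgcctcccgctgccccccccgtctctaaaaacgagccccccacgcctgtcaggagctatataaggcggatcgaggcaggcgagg
Sgk1, chr10:21993640-21993889, plus strand: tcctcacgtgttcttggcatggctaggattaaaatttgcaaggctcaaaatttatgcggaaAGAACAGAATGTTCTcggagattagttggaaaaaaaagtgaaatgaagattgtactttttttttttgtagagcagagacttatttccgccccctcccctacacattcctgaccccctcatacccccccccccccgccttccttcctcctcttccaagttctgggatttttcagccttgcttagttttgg
TGACG was found in 16 of the 29 promoters listed for 18 immediate early genes, which is 55.2%, against 17.8% of all 32851 promoters of the same length. At least 1 such promoter was found for 14 of the 18 genes, against 5347 of all 27025 genes. The palindromic element was found in 3 of the 32851 promoters, of which 1 belongs to Sgk1. It was in 1 of 27 promoters of 17 glucocorticoid-responsive genes. A match is a description of the letters in this window and not of binding.

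The 6 arrays were not alike in their controls. The mean of the hybridization controls, which are transcripts foreign to the mouse added before hybridization, was 11.22, 11.31 and 11.39 in Tg2576 mice (replicates 1 to 3), against 11.33, 12.43 and 11.92 in WT mice. WT replicates 2 and 3 were thus high, and WT replicate 1 lay among the Tg2576 arrays. Background probes of low GC content averaged 3.50, 3.55 and 3.52 in Tg2576 mice, against 3.49, 3.83 and 3.55 in WT mice, with WT replicate 2 alone standing out. WT replicate 2 also had the lowest correlations with the other 5 arrays, between 0.984 and 0.986. Array medians lay between 8.25 and 8.27. Results are therefore given with WT replicate 1 as the only WT array of 6 months, and with the hybridization control mean as a covariate. The marker lists of the tissue gave high values for mitral and tufted cells (array means 10.11 to 10.23 in Tg2576 mice, against 9.76 to 9.94 in WT mice) and for bulb interneurons (10.75 to 10.77, against 10.71 to 10.81). App was 12.38, 12.35 and 12.44 in Tg2576 mice, against 12.34, 12.26 and 12.34 in WT mice (0.08, standard error 0.08, limma adjusted p = 0.841), and was not called. No source used here says whether its probes read the human transgene.

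**Figure D1:**
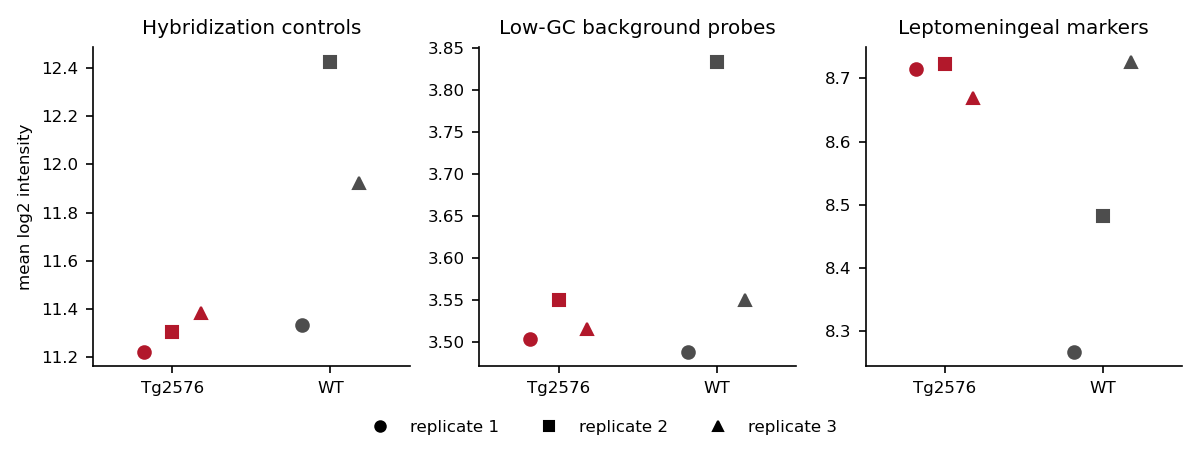
Mean log2 intensity of the hybridization controls, of the low-GC background probes and of 13 leptomeningeal marker genes on each of the 6 arrays, with Tg2576 left and WT right. WT replicates 2 and 3 are high in the hybridization controls (12.43 and 11.92), WT replicate 2 in the background probes (3.83), and WT replicates 1 and 2 are low in the leptomeningeal markers (8.27 and 8.48).

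Of the 22206 gene probesets, 143 were called higher in Tg2576 mice (0.644%) and 89 lower (0.401%). A call is an unadjusted p under 0.01 in limma with a fold change above 1.3 or below 0.7, which is 0.38 or -0.51 on the log2 scale. These limits are unequal, and the balance turned with a symmetric limit of 1.3-fold (143 higher and 194 lower) or with none (184 higher and 266 lower). No true change would leave about 222 probesets past the p limit alone, and 450 passed it. After Benjamini-Hochberg adjustment limma called 0 probesets, with a lowest adjusted p of 0.201, for Hcrtr2, while 1911 had an unadjusted p under 0.05. The call rule is thus a ranking, and no single gene passed the adjustment. All 3 Tg2576 values lay above all 3 WT values in 128 of the 143 probesets called higher, and below them in 83 of the 89 called lower. Over all probesets, whether called or not, the groups were apart in these directions in 7.56% and 7.29%. The count of calls rested on single arrays of either genotype. It was 421 higher and 233 lower without WT replicate 1, 104 and 51 without WT replicate 2, and 173 and 126 without WT replicate 3. It was 113 and 69 without Tg2576 replicate 1, 164 and 98 without Tg2576 replicate 2, and 106 and 72 without Tg2576 replicate 3.

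The largest change among genes called higher was that of Ccn3. This gene encodes a secreted matricellular protein. It was 10.19, 9.38 and 10.23 in Tg2576 mice, against 8.70, 8.91 and 8.71 in WT mice. Replicate 2 was the lowest Tg2576 value and still lay above every WT value. The means were 9.93 ± 0.48 in Tg2576 mice and 8.77 ± 0.12 in WT mice (SD, n = 3 each), a log2 fold change of 1.16 with a standard error of 0.22 (limma adjusted p = 0.292). Ccn3 was 1.23 against WT replicate 1 alone and 1.05 with the hybridization controls as a covariate, and its call held in each fit without 1 array. The other 5 measured genes of the CCN family, which encode matricellular regulators of adhesion and growth factor signalling, lay between -0.18 (Ccn4) and 0.15 (Ccn1), and none was called.

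Ndst4 encodes an enzyme that removes acetyl groups from heparan sulfate chains and adds sulfate. It was 10.80, 9.93 and 11.24 in Tg2576 mice, against 9.43, 9.62 and 9.79 in WT mice. The groups did not overlap, but the Tg2576 mice spread over more than a log2 unit, and the call was lost without Tg2576 replicate 1 (0.98) or 3 (0.76) and without WT replicate 1 (0.96) or 2 (1.05). It was also lost against WT replicate 1 alone (1.23) and with the hybridization covariate (1.06). Hs3st4, which adds a rarer sulfate group to the same chains, was higher by 0.42. Its call was lost without Tg2576 replicate 1 (0.42) or 3 (0.37) and without WT replicate 2 (0.31) or 3 (0.45), and Hs3st4 was at 0.27 against WT replicate 1 alone and 0.17 with the covariate, uncalled in both. Of 15 measured heparan sulfate synthesis genes these 2 were called higher and 0 lower, with a median of -0.03 over the list, against 0.01 over all 19505 genes with a symbol. Over those genes, each with its brightest probeset, 0.682% were called higher and 0.349% lower.

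Hpcal1, a calcium sensor of the hippocalcin family, had the tightest WT values of the leading genes. It was 10.46, 10.03 and 10.65 in Tg2576 mice, against 9.58, 9.59 and 9.57 in WT mice. All Tg2576 values lay clearly above the WT values. The log2 fold change was 0.80 with a standard error of 0.14 (limma adjusted p = 0.241), and it was 0.80 against WT replicate 1 alone and 0.81 with the hybridization controls as a covariate. At 2 months the difference was -0.14.

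Hcrtr2 encodes orexin receptor 2, through which hypothalamic orexin neurons act on the forebrain. It was 7.81, 7.43 and 7.66 in Tg2576 mice, against 6.81, 6.97 and 6.82 in WT mice. The lowest Tg2576 mouse was above the highest WT mouse. This is a log2 fold change of 0.77 with a standard error of 0.11 (limma adjusted p = 0.201), and the value was 0.83 against WT replicate 1 alone and 0.77 with the covariate. Hcrtr2 was the only gene called among 36 measured receptors for modulatory transmitters and peptides, whose median was 0.08. It was not the largest change in that list, whose values ran from -0.33 to 1.31. All Tg2576 values lay above all WT values in 10 of the 36 and below them in 4, against 7.56% and 7.29% of all probesets. Slc24a2, a potassium-dependent sodium and calcium exchanger of neurons, was 9.89, 9.57 and 10.13 in Tg2576 mice, against 9.17, 9.10 and 9.14 in WT mice. These values did not overlap, the change was 0.73 (standard error 0.15, limma adjusted p = 0.408), and it was 0.69 and 0.64 under the same alternatives.

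Cdk18 and Mfsd4a, a kinase of the PCTAIRE family and a transporter-like gene of the major facilitator superfamily, are next to each other on chromosome 1. Cdk18 was 9.40, 8.93 and 9.84 in Tg2576 mice, against 8.44, 8.15 and 8.73 in WT mice. Mfsd4a was 10.61, 10.03 and 10.85 in Tg2576 mice, against 9.58, 9.47 and 9.98 in WT mice. In both genes Tg2576 replicate 2 was the lowest and replicate 3 the highest Tg2576 value, and WT replicate 3 was the highest WT value. The changes were 0.95 for Cdk18 (limma adjusted p = 0.408) and 0.83 for Mfsd4a (limma adjusted p = 0.428), with standard errors of 0.23 and 0.24. The call of Mfsd4a was lost without Tg2576 replicate 1 (0.77) or 3 (0.65) and without WT replicate 1 (0.78) or 2 (0.72), against WT replicate 1 alone (0.92) and with the covariate (0.69). That of Cdk18 held in each fit without 1 array, and was lost against WT replicate 1 alone (0.95) and with the covariate (0.80).

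Lingo2, a membrane protein with leucine-rich repeats, was higher by 0.85, Garnl3, a gene with a GTPase-activating domain, by 0.71, and Plekhf1, an endosomal phosphoinositide-binding protein, by 0.65. Plekhf1 had the smallest spread of these, with 9.55, 9.47 and 9.59 in Tg2576 mice, against 8.91, 8.85 and 8.92 in WT mice. The call of Lingo2 was kept only without Tg2576 replicate 2 (1.09), and its value ranged from 0.62 to 1.09 in the 6 fits without 1 array. Lingo2 (0.98 and 0.66), Garnl3 (0.70 and 0.64) and Plekhf1 (0.63 and 0.51) were not called against WT replicate 1 alone or with the covariate. The probeset of Ifit1bl1, of the interferon-induced IFIT family, was dim, with 6.81, 7.03 and 6.74 in Tg2576 mice, against 6.42, 5.90 and 5.93 in WT mice. Its change of 0.78 (limma adjusted p = 0.241, standard error 0.13) became 0.44 against WT replicate 1 alone, where the call was lost. Of 10 measured interferon-stimulated genes, none was called, with a median of 0.10 that turned to -0.08 without WT replicate 2 and -0.07 with the covariate.

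Among called genes with a symbol and no overlap between the groups, the 10 with the largest rises had Tg2576 replicate 2 as the lowest Tg2576 array in 9. Among the 143 probesets called higher it was the lowest in 75, and among all probesets in 33.7%. These 10 genes include 3 below the median level of all gene probesets, 8.25. Of the 10, 3 stayed called against WT replicate 1 alone (Ccn3, Hpcal1 and Hcrtr2) and 4 with the hybridization controls as a covariate (these and Ifit1bl1).

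**Figure D2:**
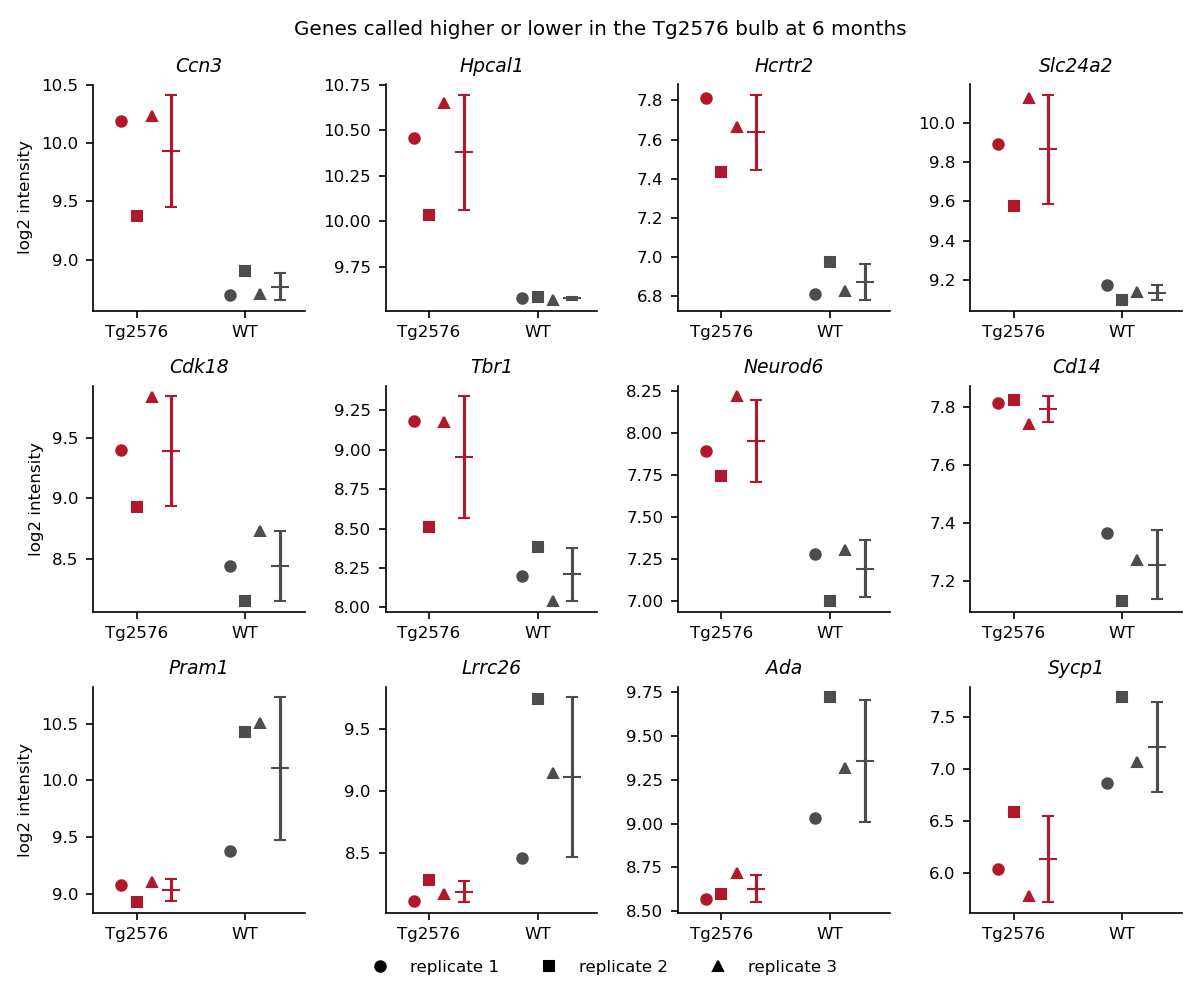
Log2 intensity of 8 genes called higher (upper and middle rows) and 4 called lower (lower row) on each array of 6 months, with Tg2576 left and WT right. Points are arrays, with a symbol for each replicate number, and horizontal marks with bars are means ± SD (n = 3 each). The labels do not say whether replicate numbers pair mice. Tg2576 replicate 2 is the lowest Tg2576 array in 7 of the 8 genes called higher, and WT replicate 1 is the lowest WT array in all 4 genes called lower.

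Tbr1, the T-box factor that marks mitral and tufted cells in the OB, was 9.18, 8.51 and 9.18 in Tg2576 mice, against 8.20, 8.38 and 8.04 in WT mice. Tg2576 replicate 2 lay close to the WT values and the other Tg2576 mice well above them. The log2 fold change was 0.75 with a standard error of 0.19 (limma adjusted p = 0.408), and the call was lost against WT replicate 1 alone (0.75) and with the covariate (0.72). Slc17a6, which loads glutamate into the vesicles of these cells, was 7.97, 7.63 and 7.97 in Tg2576 mice, against 7.58, 7.19 and 7.34 in WT mice, a change of 0.49. Its call was lost without Tg2576 replicate 1 (0.43) or 3 (0.43) and without WT replicate 2 (0.40) or 3 (0.47), and the value was 0.28 against WT replicate 1 alone and 0.17 with the covariate, uncalled in both. Tbx21, another T-box gene of the same cells, was 9.33, 9.31 and 9.13 in Tg2576 mice, against 8.78, 8.62 and 9.04 in WT mice. Its value of 0.45 was not called (limma adjusted p = 0.499), although the groups did not overlap. Of 8 mitral and tufted cell markers, 2 were called higher (25%, against 0.682% of all genes) and 0 lower. A positive value was found in 7, and the median was 0.21. That median was 0.12 without WT replicate 2 and 0.10 against WT replicate 1 alone. In whole OB, more cells of a type and more RNA per cell cannot be told apart.

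Neurod6, a transcription factor of forebrain excitatory neurons, was 7.89, 7.75 and 8.22 in Tg2576 mice, against 7.28, 7.00 and 7.30 in WT mice. The groups were well apart, 0.76 on average (limma adjusted p = 0.408, standard error 0.17), but not called against WT replicate 1 alone (0.68) or with the covariate (0.63). It was the only gene called of 8 measured markers of forebrain excitatory neurons, whose median was 0.05, and -0.0019 without Tg2576 replicate 1. Emx2 and Zic5, patterning factors of the forebrain, were higher by 0.45 and 0.41. With Tbr1 they made up 3 called of 19 measured patterning factors (15.8%, against 0.682% of all genes). The median of that list was 0.07, and -0.02 without WT replicate 3. The call of Emx2 was lost without Tg2576 replicate 3 (0.35). That of Zic5 was lost in 5 of the 6 fits without 1 array, in which it lay between 0.32 and 0.49, and was kept only without WT replicate 3. Emx2 (0.41 and 0.39) and Zic5 (0.43 and 0.34) were not called against WT replicate 1 alone or with the covariate. Of 19 measured interneuron markers, Pvalb alone was called, with 8.71, 8.80 and 8.68 in Tg2576 mice, against 8.38, 8.07 and 8.40 in WT mice. Parvalbumin is a calcium buffer of fast-spiking interneurons, and its value was 0.45 with all arrays and 0.34 without WT replicate 2, 0.35 against WT replicate 1 alone and 0.30 with the covariate, where the call was lost. The interneuron list had a median of -0.04. Neuroblast (8 measured) and proliferation markers (9 measured) had medians of -0.03 and -0.02, with no gene called.

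Olfactory sensory neuron markers were above 0 in 12 of 12 genes, with a median of 0.32, and none was called. Over all genes 52.2% were above 0. Members of a list share the same 6 arrays, so that in this and the other lists their signs are not independent. Omp, the marker protein of mature sensory neurons, was 9.80, 10.16 and 9.94 in Tg2576 mice, against 9.65, 9.25 and 9.55 in WT mice. The groups did not overlap, but the value of 0.48 had a standard error of 0.27 (limma adjusted p = 0.647). The mean over the 12 genes was 8.67, 8.73 and 8.90 in Tg2576 mice, against 8.58, 8.33 and 8.49 in WT mice, so that WT replicate 2 was lowest. The median was 0.22 without WT replicate 2, 0.20 against WT replicate 1 alone and 0.08 with the hybridization controls as a covariate. The bodies of these cells lie in the nasal epithelium and their axons in the outer layer of the OB, and the part that dissection took in this was not tested. Olfactory ensheathing glia, which wrap these axons, had a median of 0.04 over 6 genes.

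Odorant and vomeronasal receptor genes were mostly dim. Their median levels lay at percentiles 11.1 and 6.1 of all gene probesets, against 62.8 for the sensory neuron markers. At such different levels the changes of receptors and markers are not comparable. Of 1080 odorant receptor genes, 7 were called higher and 4 lower, with a median of -0.01, and of 319 vomeronasal receptor genes 1 was called higher (Vmn2r86, 0.61) and 0 lower, with a median of -0.06 that was 0.0029 with the covariate. The call of Vmn2r86 was lost without Tg2576 replicate 1 (0.57) or 3 (0.48) and without WT replicate 1 (0.54) or 3 (0.45), and held against WT replicate 1 alone (0.74) and with the covariate (0.92). The shares of odorant receptors called, 0.648% and 0.370%, were near those of all genes. The higher ones include Olfr1305 (0.53), Olfr635 (0.47), Olfr1353 (0.46) and Olfr316 (0.42). Of these, Olfr316 alone lay above the median level of all gene probesets (8.38, against 8.25). In the same order they were at 0.22, 0.34, 0.42 and 0.33 against WT replicate 1 alone. With the covariate they were at 0.21, 0.53, 0.33 and 0.28, uncalled. Of the 4 lower ones, 3 (Olfr113, Olfr115 and Olfr116) lie in 1 cluster on chromosome 17, with 1 protein-coding gene between Olfr113 and Olfr115 and none between Olfr115 and Olfr116. Olfr115 was 5.71, 6.34 and 5.71 in Tg2576 mice, against 6.57, 6.81 and 6.80 in WT mice. Olfr113 was 6.79, 7.34 and 6.77 in Tg2576 mice, against 7.54, 7.93 and 7.67 in WT mice. Tg2576 replicate 2 was the highest Tg2576 mouse in both and lay below each WT mouse. The changes were -0.81 for Olfr115, -0.75 for Olfr113 and -0.58 for Olfr116, and the call of Olfr116 was lost without WT replicate 2 (-0.49). With WT replicate 1 alone they were -0.65, -0.57 and -0.43, all uncalled, and with the covariate -0.74, -0.49 and -0.40, where Olfr115 alone stayed called. Cross-hybridization between receptor genes of like sequence was not tested. Olfr1256, on chromosome 2, was lower by 0.64, with values at the dim end of the array (4.86, 4.86 and 4.75 in Tg2576 mice, against 5.58, 5.56 and 5.26 in WT mice). It stayed called against WT replicate 1 alone (-0.75) and with the covariate (-0.73).

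Of 24 immediate early genes, 3 were called lower in Tg2576 mice (12.5%, against 0.349% of all genes) and 0 higher. A value below 0 was found in 22, and the median was -0.33. Npas4, an activity-dependent transcription factor of neurons, was 7.90, 8.35 and 8.06 in Tg2576 mice, against 8.78, 9.15 and 8.59 in WT mice. Its groups did not overlap and differed by -0.74 (limma adjusted p = 0.453, standard error 0.22). Arc, which acts at synapses in receptor endocytosis, was 9.06, 9.32 and 9.37 in Tg2576 mice, against 10.10, 9.87 and 9.50 in WT mice. WT replicate 3 was close to the Tg2576 mice, and the means differed by -0.57 (limma adjusted p = 0.428, standard error 0.16). Fos, a subunit of the AP-1 transcription factor, was 8.54, 8.84 and 8.60 in Tg2576 mice, against 9.44, 9.65 and 8.70 in WT mice. Here WT replicate 3 lay within the range of the Tg2576 mice, so that the groups overlapped, and the means differed by -0.61 (limma adjusted p = 0.475, standard error 0.19).

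The mean over the 24 genes was 9.04, 9.25 and 9.09 in Tg2576 mice, against 9.52, 9.51 and 9.23 in WT mice. WT replicate 3 was thus below Tg2576 replicate 2. The list median moved between -0.41 (without WT replicate 3) and -0.26 (without WT replicate 1), and was -0.33 against WT replicate 1 alone and -0.21 with the hybridization controls as a covariate. Calls of single genes were less stable. That of Arc was lost without Tg2576 replicate 1 (-0.48) or WT replicate 1 (-0.44), and held against WT replicate 1 alone (-0.85) and with the covariate (-0.64). That of Fos was lost without Tg2576 replicate 1 (-0.55) or 3 (-0.58) and without WT replicate 1 (-0.51) or 2 (-0.41), and with the covariate (-0.495), and held against WT replicate 1 alone (-0.79). That of Npas4 was lost without Tg2576 replicate 1 (-0.64) or 3 (-0.72) and without WT replicate 1 (-0.77) or 2 (-0.58), as well as against WT replicate 1 alone (-0.68) and with the covariate (-0.62). Among members that were not called, Fosb was at -0.43, the orphan nuclear receptor Nr4a3 at -0.49, the phosphatase Dusp1 at -0.34 and Egr1 at -0.26, whereas Egr4 (0.28) and Ier5 (0.06) were above 0. At 2 months the list median was -0.46 with 3 genes above 0, and Fos, Arc and Npas4 were at -0.88, -0.65 and -0.75. Handling before dissection is not described for single mice, and its part was not tested.

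**Figure D3:**
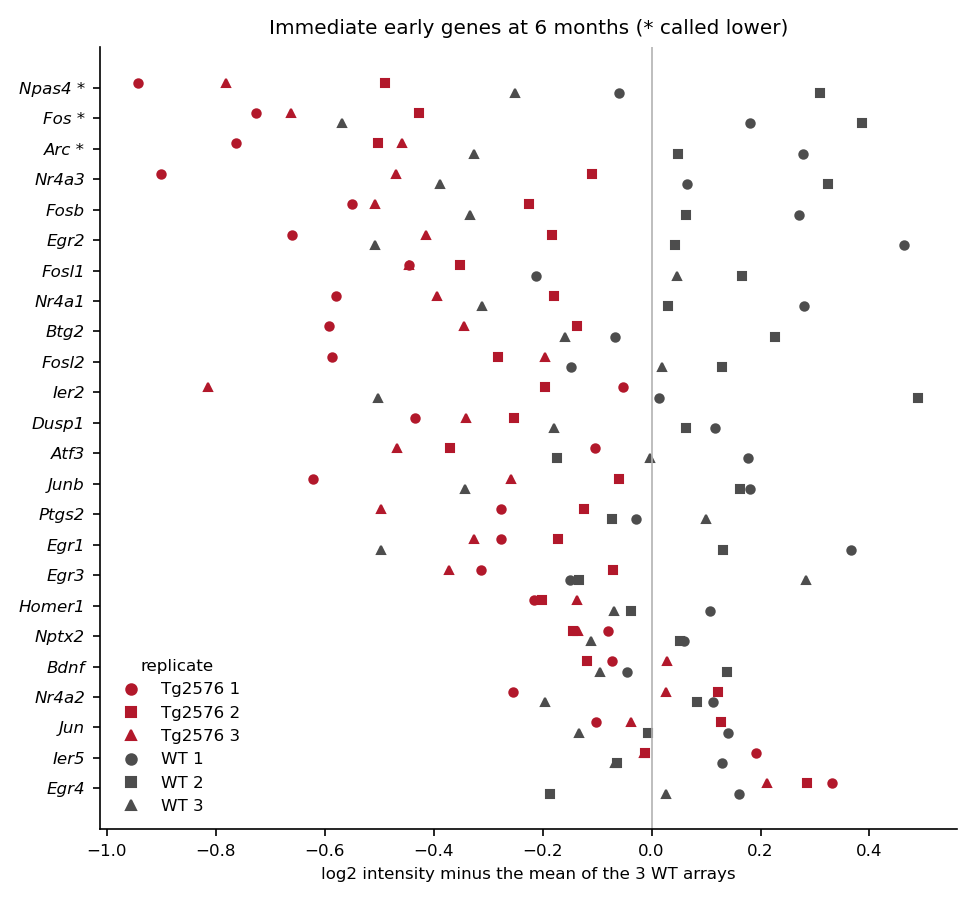
Log2 intensity of 24 immediate early genes on the 6 arrays of 6 months, each minus the mean of the 3 WT arrays, with Tg2576 in red above WT in grey within each gene. Tg2576 points lie left of 0 for most genes, and WT replicate 3 overlaps with them in Fos, Egr1, Egr2 and Nr4a1 among others.

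Genes that glucocorticoid hormones induce were called higher in 5 of 18 measured members (27.8%, against 0.682% of all genes) and lower in 0. Of the 18, 13 were above 0, with a median of 0.13. Sgk1, a kinase that regulates ion transport, was 9.74, 9.49 and 9.68 in Tg2576 mice, against 8.97, 9.16 and 9.15 in WT mice. The groups did not overlap, and the 0.55 between the means (limma adjusted p = 0.408, standard error 0.13) was 0.67 against WT replicate 1 alone and 0.56 with the covariate, called in both. Hif3a, a hypoxia-inducible factor subunit, was 8.60, 8.45 and 8.72 in Tg2576 mice, against 8.24, 8.01 and 7.85 in WT mice. Its change was 0.55 with all arrays, 0.35 against WT replicate 1 alone, where the call was lost, and 0.55 with the covariate, where it held. Nfkbia, the inhibitor of NF-kB, was higher by 0.54, the arrestin-domain gene Arrdc2 by 0.57 and Errfi1, an inhibitor of EGF receptor signalling, by 0.40. The call of Nfkbia was lost without Tg2576 replicate 1 (0.45) or WT replicate 3 (0.40). Errfi1 lost its call in 4 of the 6 fits without 1 array, where it ranged from 0.36 to 0.47. That of Arrdc2 was lost without Tg2576 replicate 1 (0.52) or 3 (0.54) and without WT replicate 2 (0.49) or 3 (0.53). Arrdc2 (0.33 and 0.29), Nfkbia (0.44 and 0.47) and Errfi1 (0.48 and 0.38) were uncalled against WT replicate 1 alone and with the covariate. Members that were not called went both ways. Tsc22d3 (0.36), Fkbp5 (0.27) and Ddit4 (0.14) were positive. Klf9 (-0.05), Zbtb16 (-0.11), Cdkn1a (-0.14) and Lcn2 (-0.44) were negative. At 2 months the list median was 0.21, with 15 of the 18 above 0. Sgk1, Hif3a, Nfkbia and Arrdc2 were then at 0.33, 0.48, 0.22 and 0.18. Nfkbia was the only gene called of 9 measured genes of NF-kB feedback (median 0.06, and -0.08 against WT replicate 1 alone).

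Oligodendrocyte markers were above 0 in 13 of 14 genes, with a median of 0.27. Mbp, a structural protein of myelin, was 10.59, 10.10 and 10.62 in Tg2576 mice, against 10.13, 9.77 and 9.77 in WT mice. Tg2576 replicate 2 lay below WT replicate 1, so that the groups overlapped, with means 0.55 apart (limma adjusted p = 0.408, standard error 0.14). It was the only member called, and lost the call against WT replicate 1 alone (0.31) and with the covariate (0.39). Aspa, an enzyme of myelin lipid supply, was at 0.65 and Ermn, a cytoskeletal protein of these cells, at 0.48, neither called. The mean over the 14 genes was 9.47, 9.13 and 9.49 in Tg2576 mice, against 9.04, 9.09 and 9.10 in WT mice. Tg2576 replicate 2 was near the WT mice, and the list median was 0.37 without it and 0.19 without Tg2576 replicate 3. Precursor cells (8 measured genes) had a median of 0.05 with none called, which was -0.04 against WT replicate 1 alone.

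Of 12 astrocyte markers, Maob alone was called. This mitochondrial monoamine oxidase was 8.43, 8.34 and 8.49 in Tg2576 mice, against 7.93, 7.82 and 7.76 in WT mice, a change of 0.58 with no overlap. The call was lost without Tg2576 replicate 1 (0.58) or 3 (0.55) and without WT replicate 3 (0.55), where the value hardly moved, against WT replicate 1 alone (0.49) and with the covariate (0.42). The list median was 0.15. Of 13 microglial markers none was called (median 0.04). Among 14 measured genes of the disease-associated microglial state, 2 were called higher (14.3%, against 0.682% of all genes) and 0 lower, with a median of 0.02. These were the lipopolysaccharide co-receptor Cd14 and the growth factor Csf1. Cd14 was 7.81, 7.82 and 7.74 in Tg2576 mice, against 7.37, 7.13 and 7.27 in WT mice. Its Tg2576 values were within 0.1 of each other and above all WT values, with means 0.54 apart (limma adjusted p = 0.292, standard error 0.10). The difference was 0.43 both against WT replicate 1 alone and with the covariate, called in both. Csf1 was higher by 0.43, and its call was lost without Tg2576 replicate 3 (0.38) or WT replicate 1 (0.39) and with the covariate (0.45), but not against WT replicate 1 alone (0.53).

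Endothelial (10 genes) and mural markers (7 genes) had medians of 0.00 and 0.06 with none called, and 0.24 for mural markers against WT replicate 1 alone. Leptomeningeal markers had a median of 0.16, with Fmod, a collagen-binding proteoglycan, called higher (0.63) of 13. The mean over these 13 genes was 8.72, 8.72 and 8.67 in Tg2576 mice, against 8.27, 8.48 and 8.73 in WT mice, so that WT replicate 3 lay above the Tg2576 mice and WT replicate 1 furthest below. The median was thus 0.09 without WT replicate 1 and 0.59 against WT replicate 1 alone. Fmod was 8.08, 7.67 and 7.90 in Tg2576 mice, against 6.94, 7.42 and 7.40 in WT mice, and its call was lost without Tg2576 replicate 1 (0.54) or 3 (0.63) and without WT replicate 1 (0.48). It held against WT replicate 1 alone (0.95) and with the hybridization covariate (0.76). With the leptomeningeal mean as a covariate, 14 of 64 called genes named by rule lost the call, among them Fos, Arc and Slc17a6. Choroid plexus and ependymal genes (4 measured, median 0.19, but 0.02 without WT replicate 2 and -0.03 against WT replicate 1 alone) and blood cell genes (3 measured, median -0.19) had no call.

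**Figure D4:**
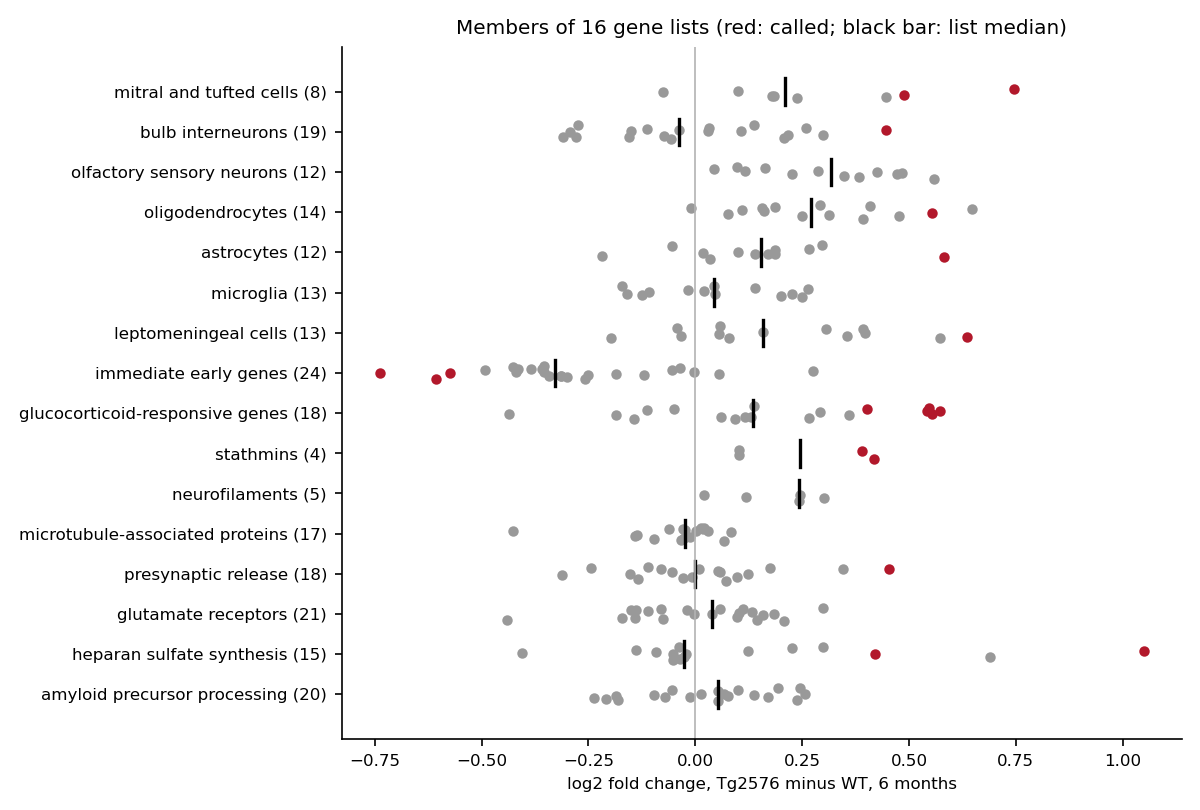
Log2 fold change, Tg2576 minus WT at 6 months, of each measured member of 16 gene lists, with the number measured in parentheses. Red points are called, grey points are not, and black bars are list medians, which lie at -0.33 for immediate early genes, 0.32 for olfactory sensory neurons and 0.27 for oligodendrocytes.

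Among cytoskeletal genes of axons, 2 of 4 stathmins were called higher (50%, against 0.682% of all genes), with a median of 0.25. Stathmins bind tubulin dimers and destabilize microtubules. Stmn2 was 9.64, 9.69 and 9.75 in Tg2576 mice, against 9.29, 9.39 and 9.15 in WT mice, and Stmn4 was 9.12, 9.06 and 9.07 in Tg2576 mice, against 8.66, 8.75 and 8.66 in WT mice. Neither overlapped. The changes were 0.42 for Stmn2 and 0.39 for Stmn4 (both limma adjusted p = 0.408), with standard errors of 0.11 and 0.10, whereas Stmn1 and Stmn3 were at 0.10 each and not called. The call of Stmn2 was lost without WT replicate 3 (0.36), and that of Stmn4 without Tg2576 replicate 1 (0.37), WT replicate 1 (0.38) or WT replicate 3 (0.37), all close to the fold limit. Against WT replicate 1 alone they were 0.40 and 0.42, uncalled, and with the covariate both were 0.46 and called. At 2 months they were at 0.38 and 0.37.

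Neurofilament genes, which build the intermediate filaments of axons, were above 0 in 5 of 5, from 0.02 (Ina) to 0.30 (Nefm), with a median of 0.24 and none called. Against WT replicate 1 alone 3 of the 5 were above 0. The median was 0.20 there and 0.18 with the covariate. Nefm was 9.52, 9.79 and 9.66 in Tg2576 mice, against 9.41, 9.41 and 9.26 in WT mice, without overlap. Gap43, a growth cone phosphoprotein, was 11.93, 11.57 and 12.07 in Tg2576 mice, against 11.49, 11.35 and 11.34 in WT mice. It was higher by 0.47, the only gene called of 17 growth cone genes (median 0.08), and its call was lost without Tg2576 replicate 1 (0.43) or 3 (0.36), against WT replicate 1 alone (0.37) and with the covariate (0.37). Of 13 tubulins and 17 measured microtubule-associated proteins none was called, with medians of 0.08 and -0.03.

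Sv2b, a synaptic vesicle glycoprotein, was 11.00, 10.95 and 11.21 in Tg2576 mice, against 10.72, 10.65 and 10.43 in WT mice, higher by 0.45 without overlap. It was the only call among 18 measured genes of transmitter release (median 0.00), and was lost without Tg2576 replicate 3 (0.37) or WT replicate 3 (0.37), against WT replicate 1 alone (0.33) and with the covariate (0.44). Glutamate receptors (21 measured) and GABA receptors (14 measured) had no call and medians of 0.04 and 0.08. Of 88 potassium channel genes 3 were called higher (3.41%, against 0.682% of all genes) and 0 lower, the modulatory subunit Kcns3 (0.47), the channel-interacting calcium sensor Kcnip3 (0.42) and the G protein-gated channel Kcnj9 (0.41), with a median of 0.02. Kcns3 was 8.60, 8.53 and 8.27 in Tg2576 mice, against 8.37, 7.86 and 7.75 in WT mice, so that its groups overlapped, and it was at 0.10 against WT replicate 1 alone and 0.25 with the covariate, uncalled in both. Kcnip3 was uncalled at 0.45 and 0.35 in these fits, and Kcnj9 called at 0.625 in the first and uncalled at 0.51 in the second. The calls of Kcns3 (0.35 to 0.66) and Kcnip3 (0.37 to 0.50) were lost in 4 of the 6 fits without 1 array and that of Kcnj9 (0.31 to 0.54) in 5. Sodium and calcium channel genes (16) had no call and a median of -0.02. Of 22 neuropeptide genes, galanin-like peptide (Galp, 0.41) alone was called. The list median was 0.05, and -0.02 against WT replicate 1 alone, and its largest value, 1.04, was not called. The call of Galp was lost in 4 of those 6 fits (0.31 to 0.54). Galp was at 0.15 against WT replicate 1 alone and 0.25 with the covariate, uncalled in both.

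The 16 measured genes of the network around APP that the study drew at 6 months come from its merged protein and transcript differences. The transcripts came from these arrays, so that neither the directions nor the share called is independent evidence. By the rule used here 7 were called higher (43.8%, against 0.682% of all genes) and 2 lower (12.5%, against 0.349%). Besides Mbp, Gap43, Pvalb, Csf1, Stmn2, Fos and Arc, these were Crym, a thyroid hormone-binding protein (0.42), and Mertk, a phagocytosis receptor (0.38). The call of Crym was lost without Tg2576 replicate 3 (0.39) or WT replicate 2 (0.27), and that of Mertk was kept only without Tg2576 replicate 2 (0.46). Crym was at 0.29 against WT replicate 1 alone and 0.24 with the covariate, and Mertk at 0.36 and 0.39, uncalled in each. Gng2 (0.35) and the peroxisomal transporter Abcd3 (-0.36) passed the p limit and not the fold limit. Gng2 became called without Tg2576 replicate 2 (0.44), WT replicate 1 (0.39) or WT replicate 3 (0.40). Fbxo2 (0.15), Gsr (0.10), Top2b (0.10), Apba1 (0.07) and Map2k4 (0.05) were not called. Of 20 measured genes of amyloid precursor processing none was called, and the median was 0.05. Their largest positive values were in the γ-secretase subunit Ncstn (0.26) and the α-secretase Adam10 (0.25), and the lowest in the β-secretase Bace1 (-0.24). Genes of the 49 measured proteins that the study listed at 6 months were at a median of 0.03, with no call. The study's list mixes proteins that were higher and lower in Tg2576 mice, measured in other animals. A median over both directions therefore cannot show whether RNA followed protein.

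No gene was called among 23 measured survival kinases (median -0.00), 10 heat shock proteins (0.01), 14 genes of the unfolded protein response (-0.02), 17 antioxidant enzymes (0.06), 15 genes of cholesterol synthesis (0.11, and 0.03 against WT replicate 1 alone), 16 clock genes (-0.08, but 0.14 against WT replicate 1 alone and 0.05 with the covariate), 31 protocadherins (-0.06, but 0.0076 against WT replicate 1 alone) and 58 cytosolic ribosomal proteins (0.07). Against WT replicate 1 alone, the unfolded protein response list was at -0.16, with 1 of 14 genes above 0. The heat shock list was at -0.10 there, with 1 of 10 above 0. With the covariate these lists were at -0.05 and -0.10. Over all 52 lists, the median changed sign in 19 with some array left out, in 14 against WT replicate 1 alone and in 17 with the covariate, 27 in any of these. Among the 14 lists with a median more than 0.1 from 0, it changed sign in 2, the choroid plexus and interferon lists. Of 330 zinc finger genes, Zfp536 alone was called (0.57, median -0.03). Its call was lost without Tg2576 replicate 3 (0.45) or WT replicate 1 (0.44), and held against WT replicate 1 alone (0.83) and with the covariate (0.73).

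Calls in both directions were often dim. Below the median level of all gene probesets lay 66.3% of those called lower and 59.4% of those called higher. Of the 10 genes with the largest fall, a symbol and no overlap, 7 lay below that level. Sycp1, a component of the synaptonemal complex of meiotic chromosomes, was 6.03, 6.59 and 5.77 in Tg2576 mice, against 6.87, 7.70 and 7.07 in WT mice. All WT values lay above the Tg2576 values, and WT replicate 2 was furthest above. The means were -1.08 apart (limma adjusted p = 0.408, standard error 0.27), and -0.74 against WT replicate 1 alone and -0.56 with the covariate, uncalled in both. It was the only gene called of 7 in the synaptonemal complex list (median -0.07, but 0.04 without Tg2576 replicate 1). Krt20, an epithelial keratin, was 7.23, 7.06 and 6.99 in Tg2576 mice, against 7.41, 8.06 and 8.51 in WT mice. Here WT replicate 1 was close to the Tg2576 mice, and the change of -0.90 was -0.31 against that array alone and -0.49 with the covariate, uncalled in both.

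Pram1, an adaptor protein known from myeloid cells, was 9.08, 8.92 and 9.10 in Tg2576 mice, against 9.38, 10.43 and 10.51 in WT mice. The Tg2576 mice and WT replicate 1 lay close together, and the other WT mice well above. The means differed by -1.07 (limma adjusted p = 0.428, standard error 0.30). The call was lost without Tg2576 replicate 2 (-1.02) and without WT replicate 2 (-0.91) or 3 (-0.87), and the difference was -0.34 against WT replicate 1 alone and -0.35 with the covariate. Lrrc26, an auxiliary subunit of BK potassium channels, was 8.11, 8.28 and 8.16 in Tg2576 mice, against 8.45, 9.74 and 9.14 in WT mice, the WT arrays in the order they have in the hybridization controls. It was lower by 0.93, by 0.61 without WT replicate 2 and by 0.89 without Tg2576 replicate 1, and the call was lost in both fits, as it was against WT replicate 1 alone (-0.27) and with the covariate (-0.20). Its neighbour on chromosome 2, Tmem210, was lower by 0.81, with 8.13, 8.40 and 8.02 in Tg2576 mice, against 8.68, 9.23 and 9.06 in WT mice. The call of Tmem210 was lost without Tg2576 replicate 3 (-0.72) or WT replicate 2 (-0.69), against WT replicate 1 alone (-0.50) and with the covariate (-0.39).

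Ada, the adenosine-degrading enzyme, was 8.57, 8.60 and 8.72 in Tg2576 mice, against 9.03, 9.72 and 9.32 in WT mice. The groups did not overlap and the call held in each fit without 1 array, but the change of -0.73 was -0.40 against WT replicate 1 alone and -0.27 with the hybridization controls as a covariate, uncalled in both. Dnase1, a secreted nuclease, was 7.60, 7.85 and 7.69 in Tg2576 mice, against 8.17, 8.93 and 8.65 in WT mice, a change of -0.87, whose call was lost without WT replicate 2 (-0.70), against WT replicate 1 alone (-0.46) and with the covariate (-0.31). Rgsl1, of the RGS family, was 8.29, 8.49 and 7.59 in Tg2576 mice, against 8.82, 9.17 and 8.89 in WT mice. Tg2576 replicate 3 was the lowest by far, and the change was -0.84 with all arrays and -0.57 without that replicate, where the call held. It was lost against WT replicate 1 alone (-0.69) and with the covariate (-0.80). Pla2g4e, a phospholipase of the cytosolic group, was lower by 0.80 and kept that size against WT replicate 1 alone (-0.98) and with the covariate (-0.80), although the call was lost in both. Its call was also lost without Tg2576 replicate 1 (-0.77) or 3 (-0.61) and without WT replicate 1 (-0.70) or 2 (-0.72).

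The remaining named genes called lower were 5530401A14Rik (-0.97), AU021063 (-0.94), 4930447A16Rik (-0.92), Teddm1b (-0.87), the actin regulator Rflna (-0.79), A930009A15Rik (-0.75), Gm11149 (-0.73) and Gm5862 (-0.60). In each of them WT replicate 1 was the lowest WT array. They were between -0.53 (4930447A16Rik) and -0.14 (Gm5862) against that array alone and between -0.38 (4930447A16Rik) and -0.08 (Teddm1b) with the covariate, and none stayed called in either. In the 6 fits without 1 array the call of 4930447A16Rik held in all, that of 5530401A14Rik was lost in 3, those of A930009A15Rik and Teddm1b in 4 each and those of AU021063, Rflna, Gm11149 and Gm5862 in 5 each. Of 445 predicted genes, 1 was called higher (Gm6034, 0.39) and 2 lower, with a median of -0.03. These shares were 0.225% and 0.449%, against 0.682% and 0.349% of all genes. The call of Gm6034 was lost without Tg2576 replicate 1 (0.35) and without WT replicate 2 or 3 (0.36). Gm6034 was at 0.27 against WT replicate 1 alone and 0.32 with the covariate.

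Among the 89 probesets called lower, WT replicate 1 was the lowest WT array in 61 and WT replicate 2 the highest in 48, while over all probesets these shares were 30.5% and 34.8%. The median difference of these 89 was -0.42 between the Tg2576 mean and WT replicate 1, -0.85 for WT replicate 2 and -0.66 for WT replicate 3, the order of the hybridization controls. Among the 143 called higher, the same medians were 0.40, 0.58 and 0.49, and WT replicate 2 was the lowest WT array in 82. Against WT replicate 1 alone, where the lack of overlap fixes the sign of most of them, those past the fold limit were 78 of the 143 and 32 of the 89, and 28 and 18 stayed called. With the hybridization controls as a covariate 21 and 11 stayed called, with medians of 0.40 and -0.38. The part of labelling or hybridization in these calls was otherwise not tested. A lone WT array is assumed there to vary like the other groups.

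The 143 called higher at 6 months had a median of 0.47 at 6 months and 0.09 at 2 months, where 99 had the same sign and 3 were called higher. Over all probesets 51.8% were above 0 at 2 months and 0.401% were called higher. The 89 called lower had medians of -0.63 and 0.00, with 44 of the same sign and 5 called lower at 2 months, against 0.171% of all probesets. The ages share no arrays. The difference between the genotype changes of the 2 ages passed an unadjusted p of 0.01 in 173 probesets (0.779%) and in none after adjustment (lowest limma adjusted p 0.842, with 1268 at an unadjusted p under 0.05). Of these 173, 17 were called higher and 25 lower at 6 months.

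**Figure D5:**
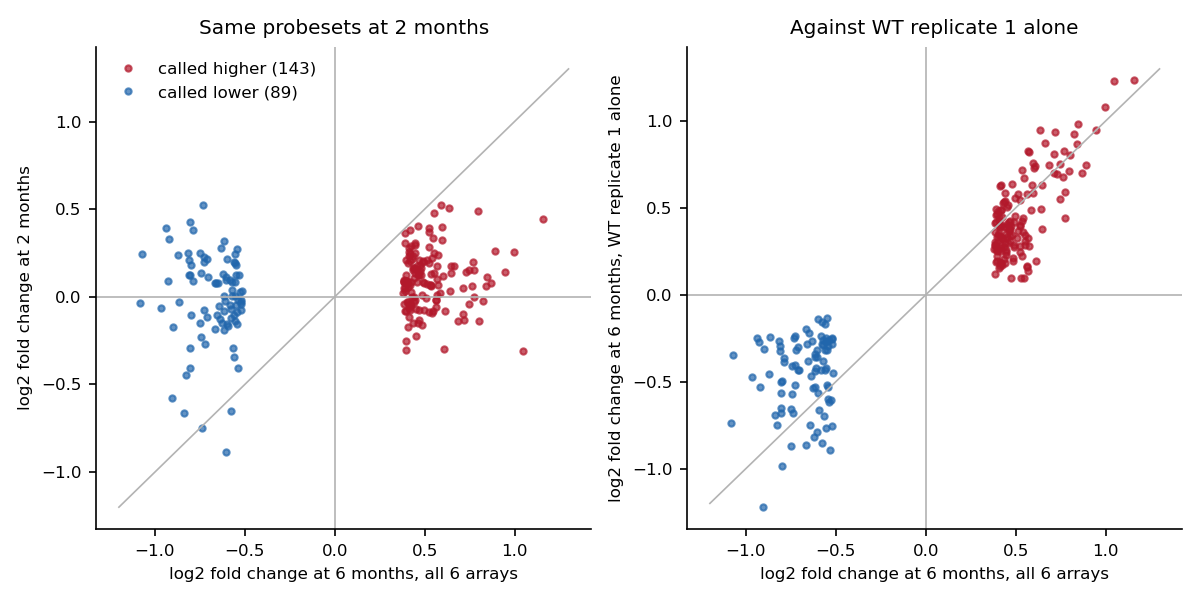
Log2 fold change, Tg2576 minus WT, of the 143 probesets called higher (red) and the 89 called lower (blue) at 6 months. The horizontal axes give the value from all 6 arrays, the left vertical axis the value at 2 months and the right one the value against WT replicate 1 alone, and grey diagonals mark equal values. At 2 months the points scatter around 0 (medians 0.09 and 0.00), and against WT replicate 1 alone, where the lack of overlap fixes most signs, the lower ones are mostly nearer to 0 (median -0.42).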

How the data were processed

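OB RNA of 12 female mice was hybridized to Affymetrix Mouse Clariom S arrays after labelling with the WT Pico kit from 1 ng of RNA. The deposited values are log2 intensities, which the authors made by RMA (background correction, quantile normalization, 1 value per probeset). Its version and the genome build of the probes are not given in the sources used here. From these, limma 3.58.1 in R 4.3.3 was fitted to the 4 group means over 12 arrays, with moderated variances. All 22206 gene probesets were tested, without the 6923 control probesets. Of these, 19572 carry 1 symbol in the platform annotation, all matched to RefSeq by Entrez identifier, and 2634 carry none. A gene was represented by its brightest probeset, which gave 19505 genes. Genes were named if called with groups that do not overlap (the 10 largest per direction, and the 10 largest per direction above the median level), with up to 4 called members of each list and the called members, or members named by the study, of 5 lists. There were 44 lists with 685 entries, of which 623 were measured, and 8 families taken by symbol. The comparison, lists and rules were chosen with earlier results of these data known. Each array is 1 mouse, and 3 arrays per group limit the precision. The scripts were tested on simulated arrays carrying known changes. Alternatives covered the samples fitted, variance prior, array weights, dim probesets, scaling, block and covariates, fold and p limits, and each array left out. The fit with low-GC background probes as covariate was chosen after seeing the data. Motifs were searched as exact letters on both strands. Plots were drawn with matplotlib.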

Additional observations from a re-analysis of the deposited data

Results flagged for a closer look

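A closer look is due for 16 named genes whose genotype change at 6 months differed from that at 2 months at an unadjusted p under 0.01 in the limma interaction contrast. All of them had a limma adjusted p of 0.842. The genes were named for a large change at 6 months, which this contrast uses again, so that a low unadjusted p was favoured by their choice. The difference, change at 6 months minus change at 2 months on the log2 scale, was 1.36 for Ndst4, 0.94 for Hpcal1, 0.91 for Vmn2r86, 0.78 for Ifit1bl1, 0.68 for Sv2b, 0.57 for Hcrtr2 and 0.48 for Cd14. It was -0.53 for Olfr116, -0.59 for Olfr1256, -0.93 for Tmem210, -0.95 for Ada, -1.11 for Dnase1, -1.17 for Rflna, -1.25 for 4930447A16Rik, -1.31 for Pram1 and -1.33 for AU021063. Ndst4 was at 1.05 at 6 months and -0.31 at 2 months, and Sv2b at 0.45 and -0.22. Pram1, AU021063, 4930447A16Rik, Rflna, Ada and Dnase1 were above 0 at 2 months, with values of 0.24, 0.39, 0.33, 0.38, 0.22 and 0.24. No test for outlying values was run within groups of 3 mice.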

How the results depend on the processing

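The counts of 143 higher, 89 lower and 173 changed between ages stayed within 1.5 times under most fits. Leaving out 1 array of 6 months gave 104 to 421 higher, 51 to 233 lower and 118 to 461 for the difference between ages, with the most without WT replicate 1. With the hybridization controls as a covariate they were 51, 25 and 64, and with the dimmer probesets left out, where fewer probesets were tested, 68, 33 and 112. Array weights gave 471 for the difference between ages and the leptomeningeal covariate 114. The low-GC background covariate, chosen after seeing the data, gave 46 lower. A symmetric fold limit of 1.3 gave 143 higher and 194 lower, and no fold limit 184 and 266, so that lower calls then outnumbered higher ones. A fold limit of 1.5 gave 33 higher and 57 lower, and an unadjusted p under 0.001 gave 18 and 22. The labels do not say whether replicate numbers pair mice of the 2 genotypes. Deviations from the group means were little correlated between arrays of the same number (-0.08, 0.07 and -0.02), which cannot exclude pairing. With a replicate block the counts were 173, 83 and 190. Of 64 called genes named by rule, 14 kept the call against WT replicate 1 alone, 16 with the hybridization controls and 60 with the replicate block. Among named genes that were not called, signs reversed for Gsr (-0.0706 with the hybridization controls, and -0.0224 to 0.203 with 1 array left out, the lowest without WT replicate 2), Map2k4 (-0.0205 against WT replicate 1 alone, -0.0429 with the hybridization controls) and Top2b (-0.0781 against WT replicate 1 alone, -0.20 with the hybridization controls, -0.16 with the low-GC background, and -0.21 to 0.32 with 1 array left out, the lowest without WT replicate 2, and -0.0044 without Tg2576 replicate 1). The cause of these shifts was not tested. A median standard error of 0.13 limits what 3 mice per group can show.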

Other observations

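Of the 232 called probesets, 14 kept the call in all 6 fits without 1 array, against WT replicate 1 alone and with the hybridization controls as a covariate, 9 higher and 5 lower. Besides Ccn3, Hpcal1, Hcrtr2, Slc24a2, Sgk1 and Cd14, the higher ones were Txnip, the inhibitor of thioredoxin (0.60), Slc6a12, the betaine and GABA transporter (0.66), and Fbln1, an extracellular matrix glycoprotein (0.54). The lower ones were Olfr1256, Dgat2l6, a gene of the acyltransferase family of DGAT2 (-0.80), 1700001F09Rik (-0.75) and 2 probesets without a symbol. Txnip, Slc6a12, Fbln1, Dgat2l6 and 1700001F09Rik were chosen after their values were seen. Txnip, the brightest of these, was 11.45, 11.21 and 11.28 in Tg2576 mice, against 10.72, 10.55 and 10.87 in WT mice. Slc6a12 was 8.30, 8.41 and 8.46 in Tg2576 mice, against 7.52, 7.86 and 7.81 in WT mice. Neither overlapped between the groups.

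Genes called in the same direction were next to each other, or with 1 protein-coding gene between them, in 5 pairs, Mfsd4a with Cdk18 and Rgsl1 with Teddm1b on chromosome 1, Tmem210 with Lrrc26 on chromosome 2, and Olfr113 with Olfr115 and Olfr115 with Olfr116 on chromosome 17. Other close pairs were called in opposite directions. Npas4 (-0.74) lay next to Mrpl11, a mitochondrial ribosomal protein gene, which was higher (0.45). On chromosome 5, Asic3 (-0.55) and Fastk (0.39) had 1 gene between them. On chromosome 2, Tprn (0.41) and Tmem210 (-0.81) had 2. How often called genes lie this close by position alone was not tested.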
